A study of Drosophila melanogaster with 72 samples.

Results

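The lysozyme genes LysB, LysC, LysD, LysE, LysP, LysS and LysX of Drosophila melanogaster were followed across fly heads in which a driver switched on mutant huntingtin (mHTT). This protein, with its overlong polyglutamine stretch, causes Huntington's disease. The 7 genes were taken by symbol from the 13557 genes of the deposited table. LysS was picked on its rise in one of the comparisons, mHTT in glia as an N-terminal fragment, so the members' values there are described without a test.

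Lysozymes of this kind are small secreted enzymes that cut the peptidoglycan of bacterial cell walls. In Drosophila they are known mainly as digestive enzymes of an animal that feeds on microbes, rather than as genes switched on by infection. LysB, LysC, LysD and LysE form the D-type, near-identical copies known for strong expression in the midgut. LysP is known from the adult salivary gland, LysS from the gastric caeca of the larval midgut, and LysX from the gut around metamorphosis.

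The study had 4 models, each set against heads with the matching driver alone, with 3 libraries per arm and age and 50 heads per library. The repo-GAL4 driver is active in glia and the elav-GAL4 driver in neurons, and every fly, control or mHTT, carried 1 of them in a single copy. The glial N-terminal model was repo-GAL4/+; UAS-HTTNT231Q128/+ at 5, 7 and 8 days against repo-GAL4/+, and the glial full-length model repo-GAL4/+; UAS-HTTFLQ200/+ at 18, 20 and 22 days against repo-GAL4/+. The neuronal N-terminal model was elav-GAL4/+; UAS-HTTNT231Q128/+ at 7, 9 and 11 days and the neuronal full-length model elav-GAL4/+; UAS-HTTFLQ200/+ at 18, 20 and 22 days, both against elav-GAL4/+. The rearing temperature was 28 °C, apart from the neuronal full-length model with its controls, reared at 29 °C. The series asked how expression changes at an early, a middle and a late phase in each combination. No library came from sorted glia or neurons, so a value is that of a whole head. The labels do not say whether replicates were separate crosses, so p-values measure the spread between libraries only.

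Values are the authors' gene estimates, scaled so that the 75th percentile of genes is 1000 in each library, and they are not per length. Estimated depth was 34.9 to 46.7 M reads, at which a single read was worth 0.40 to 0.61 in 71 libraries and 1.13 in the second neuronal control library at day 11. The head markers were present in every arm. The glial gene repo averaged 1025 ± 103 in controls and 622 ± 68.4 with glial N-terminal mHTT (SD, n = 9 per arm), and the photoreceptor opsin ninaE, the highest head marker, averaged 744000 over all libraries. Changes are differences of log2(value + 1), which understate the change of low genes. They were tested with limma where a gene reached 10 in at least 3 libraries of a fit, and were called at an adjusted p under 0.05 over all genes tested.

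All members lie on chromosome arm 3L in the order LysX, LysB, LysC, LysD, LysE, LysP, LysS (BDGP6 annotation). Each is annotated with a single exon, in transcripts of 242 to 615 bases. LysX stands before the others on the minus strand. The other 6 lie within the span of mwh, a gene of wing hair polarity, on whose strand LysB, LysC, LysE and LysS lie, whereas LysD and LysP lie opposite. LysC is annotated as a pseudogene, and it overlaps the end of LysD. Reads of the D-type copies can be shared out among them by the authors' estimation, and whether counting used strand is not given in the sources used here. For both reasons single values of LysB, LysC, LysD and LysE are uncertain.

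In most heads the family was close to silent. LysP was at 0 in 52 of 72 libraries, LysC in 44, LysB in 35, LysD and LysE in 29 each, LysS in 16 and LysX in 5. The median over the libraries was 3.64 for LysX, 1.204 for LysS, 0.75 for LysD, 0.45 for LysE and 0.42 for LysB, and 0 for LysC and LysP. LysX held more than 3 reads in all but 17 libraries, the most of any member. Values of at least 100 were reached by LysS in 6 libraries, by LysD and LysX in 3 each, by LysB in 2, and by LysE and LysP in 1 each.

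LysS (FBgn0004430) was high in every glial N-terminal mHTT library. At day 5 the mHTT heads held 132, 103 and 256, and their controls 0, 2.73 and 0. At day 7 the mHTT heads held 41.6, 39.6 and 22.4, and their controls 1.14, 2.72 and 0. At day 8 the mHTT heads held 134, 171 and 169, and their controls 1.86, 0.47 and 0. The arms did not overlap at any age. Here and below, the share of all genes without overlap between the arms was not counted. A lack of overlap therefore cannot be weighed against it. The mean was 119 ± 75.9 with mHTT and 0.99 ± 1.17 without (SD, n = 9 per arm), a ratio of 120, with 47 to 560 reads behind each mHTT value and 0 to 6 behind each control value. The change over the ages was 5.78 (SE 0.34) on the log2(value + 1) scale, and at days 5, 7 and 8 it was 6.62, 4.10 and 6.61. The 3 day 7 mHTT libraries lay below all 6 of days 5 and 8. Over all genes 32.5% were called in this comparison, and nothing is read from it for LysS, which was picked by it.

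**Figure D1:**
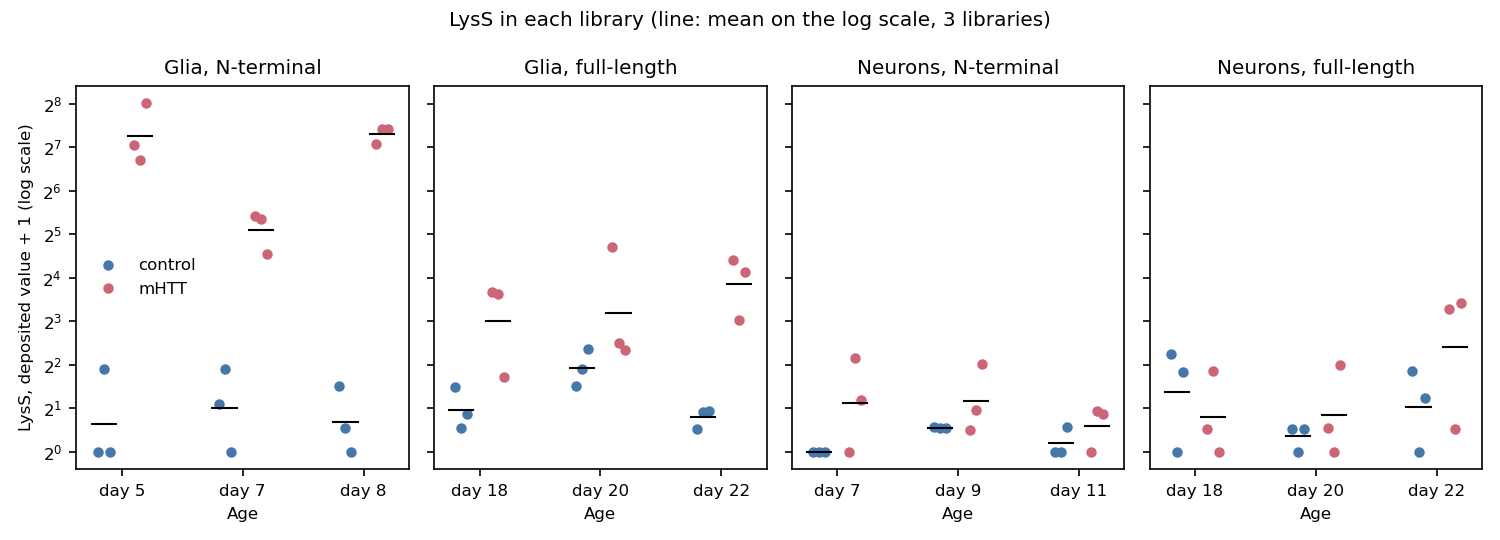
Value of LysS plus 1 in each of the 72 libraries on a log2 axis, by model, age and arm; points are libraries and lines the mean of 3 on the log scale. All 9 glial N-terminal mHTT libraries lie between 22.4 and 256, and the glial full-length mHTT libraries between 2.26 and 25.2.

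In the glial full-length model, whose libraries took no part in picking the gene, LysS also rose with mHTT. At day 18 the mHTT heads held 11.7, 11.4 and 2.26, and their controls 1.82, 0.45 and 0.81. At day 20 they held 25.2, 4.67 and 4.07 against 1.84, 2.72 and 4.10. At day 22 they held 20.3, 7.19 and 16.4 against 0.44, 0.89 and 0.92. The arms were apart at days 18 and 22, and at day 20 the lowest mHTT library lay just under the highest control. The mean was 11.5 ± 7.86 with mHTT and 1.55 ± 1.22 without (SD, n = 9 per arm), a ratio of 7.38. These are low levels: the mHTT values rested on 5 to 52 reads and the control values on 1 to 9.

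The change of LysS over the 3 ages was 2.12 (SE 0.41, limma adjusted p = 5.11e-04). LysS passed the filter on low values only through mHTT libraries, which held all 5 of its values of at least 10, and with no filter the change was the same at an adjusted p of 2.12e-04. In that comparison 44.4% of genes were called, and 19.3% were called higher, so a call by itself was common. By age the change was 3.06 at day 22 (SE 0.71, limma adjusted p = 0.00372), 2.04 at day 18 (adjusted p = 0.0550) and 1.27 at day 20 (adjusted p = 0.248), where 31.5%, 20.2% and 20.4% of genes were called. The day 18 value sat at the threshold and was called in 3 of 18 fits that each left out 1 library. The F test of equal changes at the 3 ages did not call LysS (adjusted p = 0.723), beside 0.864% of genes called by it.

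The libraries of this model carried either of 2 prefixes in their column names, whose meaning the labels do not give. The prefix called more frequent here and below was so over all 72 libraries, of which 48 carried it. In this model 9 of 18 libraries did. Prefix and arm were not balanced, and all day 18 controls carried the other prefix. LysS was higher with mHTT, without overlap, in all 4 combinations of prefix and age that held both arms. These held 2 mHTT against 3 control libraries, 1 against 2, 3 against 2 and 2 against 1. With so few libraries a lack of overlap says little. In the 9 libraries of the more frequent prefix the change over days 20 and 22 was 2.15, with an adjusted p of 0.0620 and no filter, so the size held and the call did not. With the prefix as a covariate the change was 2.36 (adjusted p = 4.76e-04).

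Hemocyte markers, the genes of circulating blood cells, rose with LysS under full-length mHTT in glia, and some of them under N-terminal mHTT. In the glial full-length model all 8 were called higher, by a median of 0.67, against a median of -0.04 over all genes tested. Of all genes, 19.3% were called higher there. Their summed value was 13690 to 18480 with mHTT and 8578 to 11630 without, so the arms did not overlap. Hml, which encodes the clotting protein hemolectin, rose by 1.22 (SE 0.12, limma adjusted p = 5.61e-07), and nimC1, a phagocytosis receptor, by 1.27 (SE 0.11, adjusted p = 1.49e-07). In the glial N-terminal model 3 of the 8 were called higher (Hml, Pxn and crq), a share near the 32.5% called over all genes, and the median was 0.08 against 0.06 over all genes. The sums were 19130 to 21950 against 14560 to 17270, of which Hml alone was 6934 to 9437 against 3952 to 5775, while nimC1 changed by 0.04 (limma adjusted p = 0.747). In the neuronal models, where LysS did not pass the filter, 1 of 8 was called higher with N-terminal mHTT (median 0.11). With full-length mHTT 2 of 8 were (median 0.23), and 2 to 5 when 1 library was left out. Over all genes 13.6% and 18.9% were called there, in that order. Hml rose by 0.81 with full-length mHTT in neurons (limma adjusted p = 0.00277). Whether blood cells have a part in the level of LysS was not tested. In heads taken as bulk, more cells of a type and more RNA per cell cannot be told apart.

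Midgut markers, of the tissue best known for the family, were mostly lower in the glial full-length model. There 18 of 24 tested midgut genes were called lower and 2 higher, with a median of -3.05. Over all genes 44.4% were called there in either direction. With N-terminal mHTT in glia, where LysS was highest, 1 of 21 was called higher and 1 lower (median -0.18). Over all genes 32.5% were called in that model. With full-length mHTT in glia the trypsin lambdaTry fell by 4.66 (SE 0.72, limma adjusted p = 5.65e-05). The Jonah protease Jon99Fii fell there by 4.54 (limma adjusted p = 2.39e-04). Both genes called higher in that model were amylases, Amy-p (by 1.51) and Amy-d (by 1.29). The summed midgut value of that model ranged from 3930 to 8018 with mHTT and from 2814 to 148000 without. Its median was higher with mHTT (5754) than without (4894), unlike most of the single genes. Without the first control library at day 22, which held that highest sum, LysS changed by 2.08 (adjusted p = 5.16e-04), and 18 of the 22 midgut genes tested were called lower (median -2.31). In neurons 0 of 18 were called with N-terminal mHTT (median 0.69), beside 13.6% of all genes. With full-length mHTT in neurons 1 of 29 was called higher and 0 lower (median -1.06), beside 18.9% of all genes. Leaving out 1 library put the number called lower there at 0 to 16.

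In neurons LysS stayed near the floor and did not pass the filter in either model. With N-terminal mHTT it was 0 to 3.43 (median 0.92) and in controls 0 to 0.48 (median 0), on at most 7 reads, and 6 of 9 mHTT libraries lay above every control. With no filter its change was 0.71 (SE 0.27, limma adjusted p = 0.125, 0.01997 before adjustment). With full-length mHTT it was 0 to 9.69 (median 0.46) and in controls 0 to 3.75 (median 0.44), with overlap. The highest values were at day 22, where mHTT heads held 8.73, 0.44 and 9.69 and controls 2.63, 0 and 1.36. The unfiltered change over the ages was 0.43 (adjusted p = 0.609), and at day 22 it was 1.38 (adjusted p = 0.357). In these models 13.6% (N-terminal) and 18.9% (full-length) of genes were called.

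The change of LysS with full-length mHTT was smaller in neurons than in glia by 1.69 (SE 0.56, limma adjusted p = 0.0220), beside 21.0% of genes called in that difference. LysS passed the filter of that fit only through glial mHTT libraries, among them those it was picked on. With no filter the adjusted p was 0.0213, and with no filter in the 36 full-length libraries alone it was 0.0428, at the same size. The difference was not called when the first glial mHTT library of day 20 was left out (-1.44, adjusted p = 0.0561), when the second neuronal one of day 22 was (-1.38, adjusted p = 0.0565), or within the more frequent prefix (-1.51 over days 20 and 22, adjusted p = 0.266). Driver and rearing temperature differed together in this comparison and cannot be told apart. In neurons the change with N-terminal minus full-length mHTT was 0.27 (SE 0.56, adjusted p = 0.760). The differences that involve the glial N-terminal model are given as values only: -5.07 for neurons minus glia, and 3.66 for N-terminal minus full-length in glia.

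Ordered by mean, LysS was highest with glial N-terminal mHTT at day 5 (164 ± 81.0) and day 8 (158 ± 20.7), which overlapped, and then at day 7 (34.5 ± 10.5; SD, n = 3 each), which lay apart from both neighbours in the order. The highest library of glial full-length mHTT at day 20 (25.2) still exceeded the lowest of that day 7 group (22.4). Next came glial full-length mHTT at days 22, 20 and 18 (14.6 ± 6.72, 11.3 ± 12.01 and 8.45 ± 5.36), which overlapped each other. Neuronal full-length mHTT at day 22 followed (6.29 ± 5.08) and overlapped the latter. The other 17 groups, all 12 control groups among them, had means of 0 to 2.89, and neighbours among them differed by less than the larger of their SDs.

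LysX (FBgn0004431) went the other way from LysS in glial N-terminal heads at days 5 and 7. At day 7 the mHTT libraries held 0 to 0.93 and the controls 4.08 to 8.95, without overlap. At day 5 they held 1.82 to 4.04 against 4.005 to 11.8, and at day 8 6.81 to 12.1 against 2.79 to 68.0, with overlap at both ages. The change over the ages was -1.19 (SE 0.46), described without a test as a value of the comparison used to pick the family.

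LysX was, in the glial full-length model, the only other member past the filter, with a change of -1.13 (SE 0.83, limma adjusted p = 0.289). Its mHTT libraries held 1.36 to 11.1 and its controls 1.36 to 1024, with medians of 3.64 and 4.54. A single control library held the highest value, and without it the change was -0.33 (adjusted p = 0.582). It was called, at -1.74, when the third day 22 control was left out (adjusted p = 0.0496). In the neuronal full-length model LysX (-0.95, SE 0.92, adjusted p = 0.536) and LysD (0.02, adjusted p = 0.993) passed the filter and neither was called over the ages or at days 18, 20 and 22, where 9.2%, 4.14% and 7.65% of genes were. No unadjusted p was under 0.05 for either. The F test of equal changes called neither, beside 0.731% of genes. In the neuronal N-terminal model no member passed the filter. There, LysX was 0.42 to 72.4 with mHTT (median 3.65) and 0 to 3.16 without (median 1.45), an unfiltered change of 1.35 (SE 0.63, adjusted p = 0.227).

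Between N-terminal and full-length mHTT in neurons the change of LysX differed by 2.31 (limma adjusted p = 0.151, 0.0408 before adjustment), where 15.6% of genes were called. Construct, age and temperature differed together in it and cannot be told apart. Without the 4 libraries farthest from their groups it was 2.74 and was called (adjusted p = 0.0234). No other member was called in that difference. Apart from LysS, none was called in the difference between drivers under full-length mHTT.

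**Figure D2:**
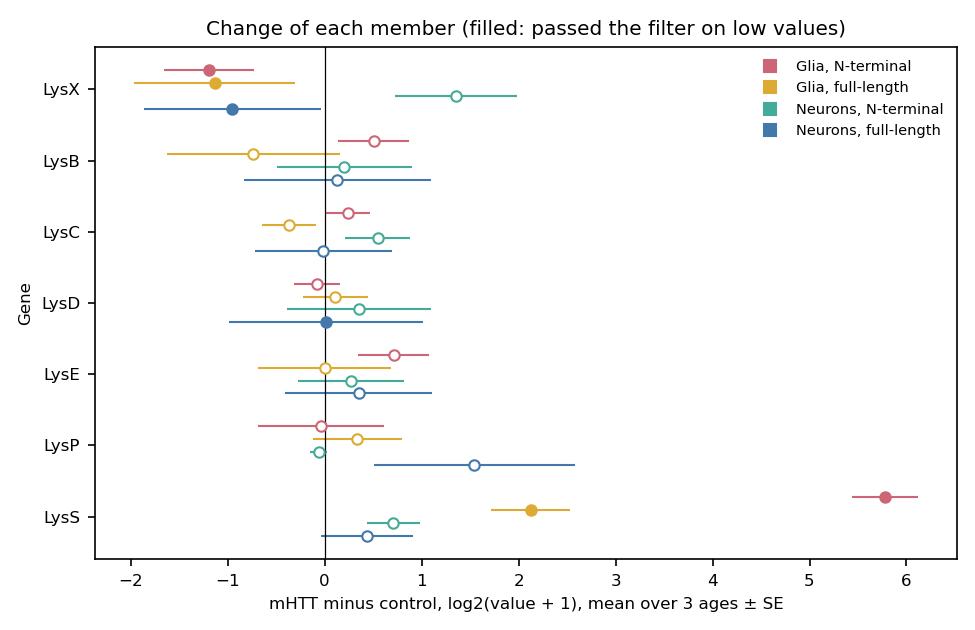
Change of each lysozyme gene, mHTT minus control over 3 ages on the log2(value + 1) scale, with its standard error, by model; open points did not pass the filter on low values. LysS stands at 5.78 and 2.12 in the glial models and at 0.71 and 0.43 in the neuronal models.

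LysB, LysC, LysE and LysP passed the filter in no model, and LysD in the neuronal full-length model only. In the 36 libraries of the glial models LysB exceeded 3.41 in a single control library and LysD stayed at or under 4.23. LysP was at 0 in all 9 neuronal N-terminal mHTT libraries. Each of the 6 members other than LysS owed much of its summed value over the 72 libraries to 1 library, from 39.0% for LysE and 47.0% for LysB to 67.9% for LysD and 93.4% for LysP. For LysS that share was 20.6%.

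Most of these transcripts lay in 4 libraries, each of a different group, and each was unlike its own replicates. The first library of day 22 with full-length mHTT in neurons held a sum of 2867 over the 6 members, the first glial control library at day 22 held 1560, the third neuronal control library at day 22 held 848, and the second library of day 9 with N-terminal mHTT in neurons held 285. The fifth highest sum was 69.0. The makeup differed between them. Per kb of transcript, LysP (2270) and LysD (1706) led in the first of these, LysX (1816) and LysB (730) in the second, LysX (1091) and LysD (337) in the third, and LysD (251) and LysX (128) in the fourth. LysP was at 0.72 per kb or absent in the second and the fourth.

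**Figure D3:**
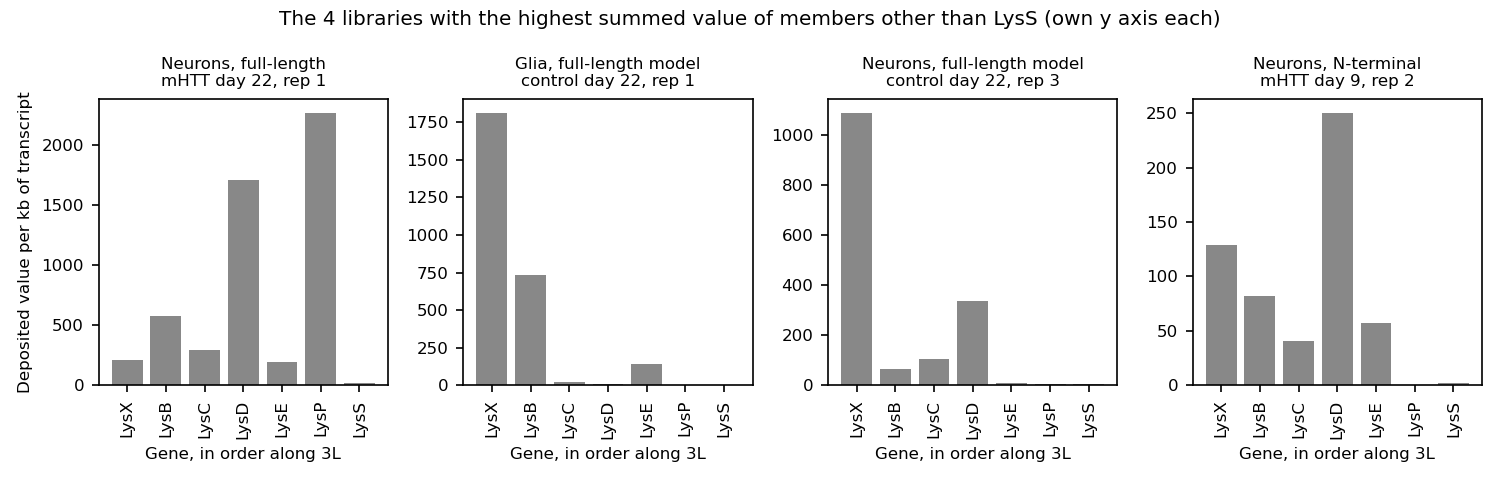
Deposited value per kb of transcript of the 7 lysozyme genes in the 4 libraries with the highest sum of members other than LysS, each with its own y axis starting at 0. LysP and LysD lead in 1 library, LysX in 2 and LysD in 1, and LysS is at 0.89 to 17.8 per kb.

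The same 4 libraries held the 4 highest midgut marker sums of all libraries. These were 183880, 148000, 60011 and 101020 in the order above, against a median of 3204. The trypsin alphaTry reached 27092, 20182, 7962 and 10489 in them. Their part in the lysozyme values was not tested. The 4 salivary gland markers summed to 516, 458, 568.3 and 450 in the same order, and over all libraries to 199 to 568.3 (median 450). In the library with LysP at 1396 the gland's enzymes PH4alphaSG1 and PH4alphaSG2 were at 0, and its regulators fkh and sage were at 407 and 108. LysS was 8.73, 0.44, 1.36 and 0.93 in these libraries, in the same order. The 8.73 lay above every control value of LysS (at most 4.10) and within the range of glial full-length mHTT (2.26 to 25.2). The others lay within the range of controls, and all 4 lay below the lowest glial N-terminal mHTT value.

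**Figure D4:**
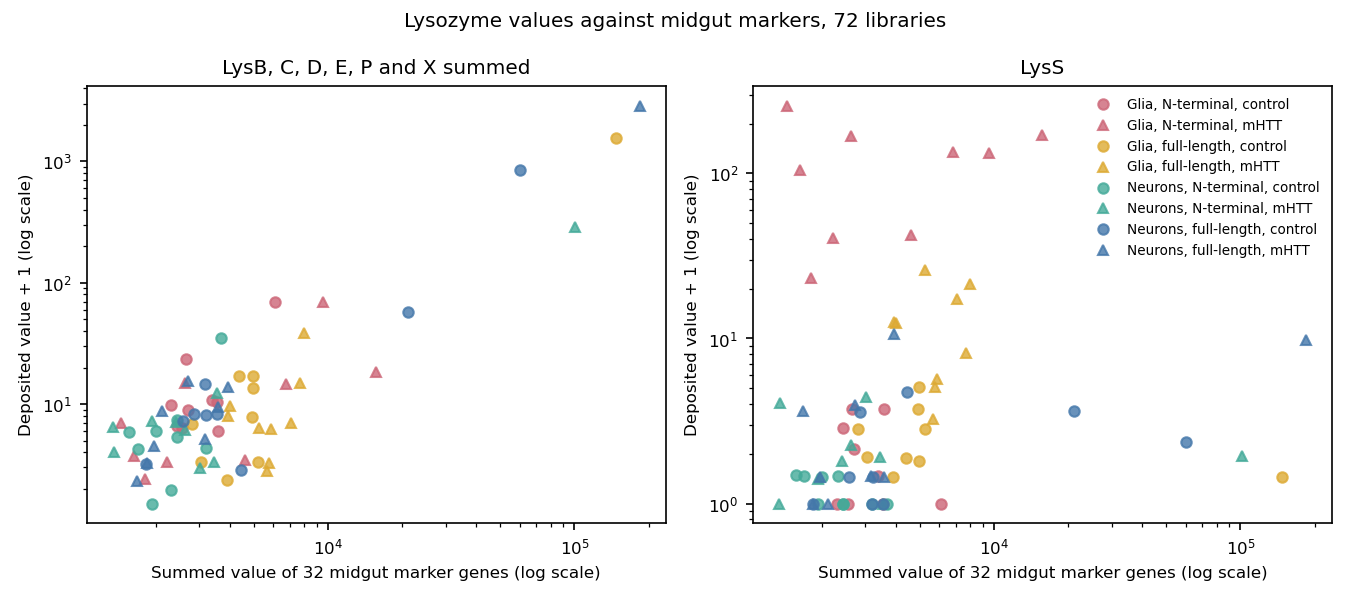
Sum of the 6 members other than LysS (left) and LysS (right), each plus 1, against the summed value of 32 midgut markers, 1 point per library on log axes. The 4 libraries with the highest midgut sums (60011 to 183880) hold the 4 highest values on the left (285 to 2867), and LysS is 0.44 to 8.73 in them.

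In control heads LysS was 0 to 4.10 under the glial driver and 0 to 3.75 under the neuronal driver, and it did not pass the filter. Among the members tested in controls, LysX had the widest difference, between older and younger neuronal controls, with 0.88 to 615 (median 4.42) at days 18 to 22 and 0 to 3.16 (median 1.45) at days 7 to 11. The difference was 2.13 (SE 0.90, limma adjusted p = 0.0910, 0.0263 before adjustment), beside 23.1% of genes called, and age and temperature cannot be told apart in it. It was called when the second neuronal control of day 22 was left out (2.76, adjusted p = 0.0190), when the first glial control of day 22 was (2.13, adjusted p = 0.0347) and when the 2 farthest controls were (2.03, adjusted p = 0.0326). Leaving out the third neuronal control of day 22 gave 1.37 (adjusted p = 0.235). LysB and LysD were not called in it. No member was called between older and younger glial controls or between drivers at day 7, nor had any an unadjusted p under 0.05, while 21.4% and 5.09% of genes were called.

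Other lysozyme genes, outside the 3L cluster, were of 2 kinds in the list used: further chicken-type genes and invertebrate-type genes. Full-length mHTT in glia gave 7 of 9 tested called higher and 1 lower, with a median of 0.47 against -0.04 over all genes. Over all genes 44.4% were called there, 19.3% of all as higher. CG14823 averaged 1743 ± 189 with mHTT and 768 ± 148 without (SD, n = 9 per arm), a rise of 1.199 (SE 0.07, limma adjusted p = 1.42e-09). CG16799 averaged 1093 ± 153 and 548 ± 124, a rise of 1.01 (adjusted p = 6.67e-09). Neither overlapped between the arms. CG6429 was the gene called lower (-0.26, adjusted p = 0.00663). In the glial N-terminal model, where LysS was highest, none of the 9 was called by limma, beside 32.5% of all genes. Of the 9, 1 had an unadjusted p under 0.05, and the median was -0.09 against 0.06 over all genes. With median-ratio rescaling, or without the first mHTT library of day 7, 2 were called lower. In the neuronal models 1 was called higher and 3 lower in each, beside 13.6% (N-terminal) and 18.9% (full-length) of all genes called. Without the library farthest from its group 3 were higher in each, with 5 lower for N-terminal and 3 for full-length mHTT.

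Antimicrobial peptide genes, the usual transcriptional readout of the Imd and Toll pathways, were mostly lower in one of the glial models in which LysS rose. There, with full-length mHTT, 13 of 14 were called lower and Def higher, with a median of -2.77. Over all genes 44.4% were called in that comparison in either direction. Dpt, which encodes diptericin, was 21550 ± 19050 in controls and 2455 ± 2190 with mHTT (SD, n = 9 per arm), a change of -3.43 (SE 0.31, limma adjusted p = 1.41e-07). CecB, a cecropin, fell by 4.62 (adjusted p = 4.74e-08). In the glial N-terminal model 3 were called higher and 2 lower, Dro the most among the former (1.53, limma adjusted p = 0.02995). The 5 of 14 called are near the 32.5% over all genes, and leaving out 1 library put the number called higher at 0 to 5. With N-terminal mHTT in neurons 1 was called higher, and with full-length mHTT 1 higher and 1 lower. Over all genes 13.6% and 18.9% were called in these models, in that order. Among Imd pathway genes 4 of 21 were called higher and 9 lower in the glial full-length model. The 4 of 21 are near the 19.3% called higher over all genes. Rel, the NF-kappaB factor of the pathway, fell there by 0.96 (SE 0.07, limma adjusted p = 1.37e-08).

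**Figure D5:**
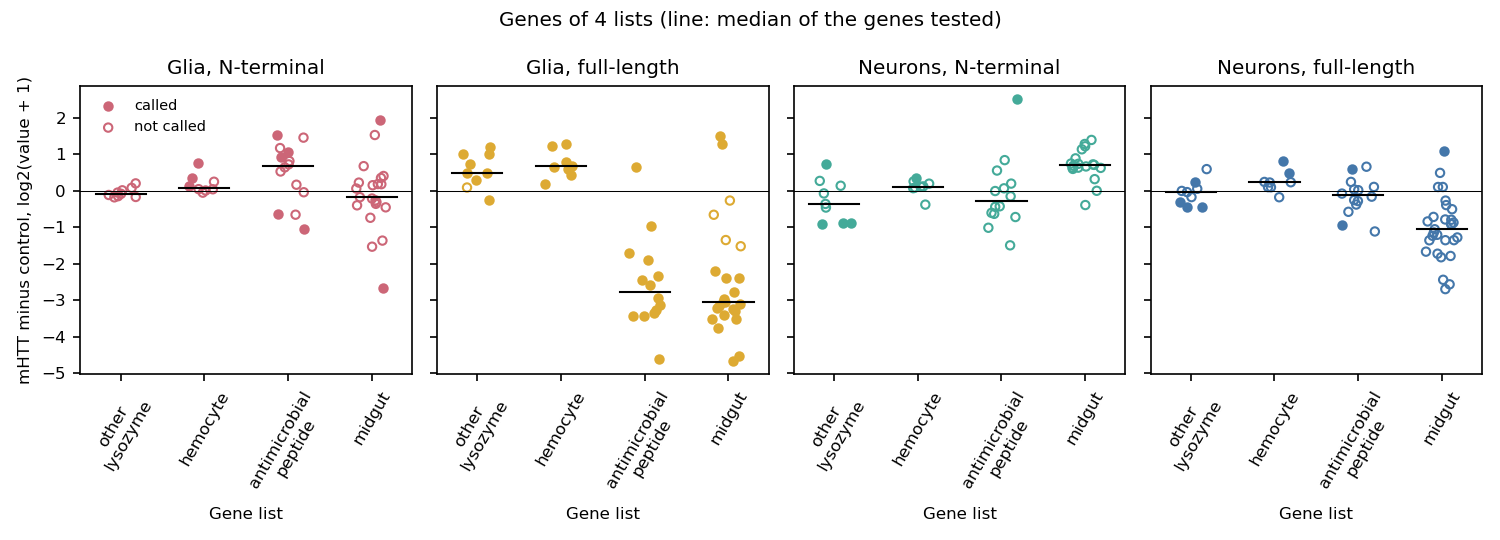
Change of each tested gene of 4 lists by model, mHTT minus control over 3 ages on the log2(value + 1) scale; filled points were called and lines are medians. In the glial full-length model other lysozyme and hemocyte genes lie mostly above 0 (medians 0.47 and 0.67), and antimicrobial peptide and midgut genes mostly below (-2.77 and -3.05).

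Among the genes most like LysS over the 24 group means were CG6234 (Pearson r = 0.95) and spok (r = 0.92), an ecdysteroid synthesis enzyme. The 3 glial N-terminal mHTT groups, the highest for LysS, were among these means. CG6234 was 1788 to 2552 there and 48.1 to 58.5 in the matching controls, and 129 to 425 against 57.7 to 144 in the glial full-length model. The gene spok was 34.3 to 64.2 against 1.14 to 3.26 in the former and 5.39 to 15.8 against 1.76 to 5.76 in the latter. Over the 18 group means without that model, a set chosen after the values were seen, the most like were Acf1, Ugt37b1 and Pdk (r of 0.89, 0.89 and 0.86). Within groups, over the deviations of 72 libraries from their group means, no gene exceeded 0.40 (Ir21a).

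The other members were followed most closely by different genes, and also within groups. Over deviations from the group means LysB was most like Tsp29Fb (r = 0.93), LysD most like CG9468 (0.88) and then the maltase Mal-A8 (0.86), and LysE most like CG10659 (0.87) and then Mal-A6 (0.87). LysP was most like Ag5r (0.85), and LysX most like Mur29B (0.87). The 4 libraries that stand apart were among the 72, and their part in these values was not tested.

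Genes interspersed with the family were also measured. The levels of mwh, in whose span LysS lies, were 801 to 893 with glial N-terminal mHTT and 557 to 668 in controls, without overlap. With full-length mHTT in glia they were 443 to 683, and 479 to 619 without (change 0.09, limma adjusted p = 0.2475). By age mwh changed there by 0.29 at day 18 (adjusted p = 0.0536), 0.10 at day 20 (0.536) and -0.13 at day 22 (0.339). The part of mwh in the values of LysS was not tested in either glial model. CG9119, between LysX and LysB, rose in the glial full-length model by 2.63 (SE 0.10, adjusted p = 1.02e-11) and in the neuronal full-length model by 1.01 (adjusted p = 7.16e-05), and fell in the neuronal N-terminal model by 0.67 (adjusted p = 0.0451). In the neuronal full-length model mwh fell by 0.36 (adjusted p = 0.00383). A neighbour of CG9119, CG32335, rose in the glial and neuronal full-length models by 1.35 and 1.19 (limma adjusted p = 5.24e-06 and 5.57e-04). In the glial N-terminal model CG9119 was 648 to 1899 with mHTT and 245 to 551 in controls, a change of 1.21. CG32335 was 22.7 to 69.0 there against 16.4 to 34.7, a change of 0.54. Aplip1, which also lies among the members, was not called with full-length mHTT. Its values were -0.05 for glia (limma adjusted p = 0.4025) and -0.02 for neurons (adjusted p = 0.934). N-terminal mHTT in neurons raised Aplip1 by 0.19 (adjusted p = 0.00819). For glia with that construct Aplip1 held 2611 to 3458 against 2483 to 2872, a change of 0.12. The part of these genes in the values of LysS was not tested.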

How the data were processed

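RNA from pooled heads was sequenced in 72 libraries (24 groups of 3). Per the submitters' processing notes the tools were CASAVA 1.8.2, Bowtie 0.12.0 and RSEM 1.1.19 and the build dm3. The deposited file holds the authors' normalised RSEM signal per gene, scaled to an upper quartile of 1000. Between 93.9% and 97.0% of low values fell within 0.1 of whole multiples of 1 step, taken as 1 read, too few to use counts. Members, chromosome arm, strand and transcript length were matched by gene ID to the BDGP6 annotation; as builds differ, no coordinates are given. Sequences were not used here.

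The test was limma 3.58.1 under R 4.3.3 with a mean-variance trend, on log2(value + 1), checked on simulated data: 6 group means in the 18 libraries of a model, 24 in all 72 for differences between models, and 12 in the 36 controls. Genes had to reach 10 in 3 or more libraries of a fit, with Benjamini-Hochberg adjustment over all genes. Ages follow the age field, since for full-length mHTT in neurons the titles name days 7, 9 and 11.

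Named genes were the members, up to 3 genes per list and model with the largest called change, and the 3 most like each member, of which 1 is not reported here; genes lying among the members were added after their values were seen. Members and lists were chosen with earlier results of these data known. Alternatives were pseudocounts, filters, scalings, the replicate block, the label prefix, other sets of libraries and leaving out each library. Estimated reads cover counting error only.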

Additional observations from a re-analysis of the deposited data

Results flagged for a closer look

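The 7 members were each checked in 8 arms of 9 libraries for a library far from the others by Dixon's criterion, keeping those of at least 10. Here 22 of 56 were flagged, in 8 libraries. The criterion's chance rate of about 1 in 20 groups is for normally spread values and does not carry over. Most values lay near 0, only the highest of each arm was checked, and the members share libraries. No excess over chance is read from the count. The first library of day 22 with full-length mHTT in neurons was flagged for LysB (353), LysC (70.4), LysD (819), LysE (112), LysP (1396) and LysX (116), the third neuronal control library at day 22 for LysB (38.8), LysC (25.7), LysD (162) and LysX (615), the first glial control library at day 22 for LysB (446), LysE (80.4) and LysX (1024), and the second library of day 9 with N-terminal mHTT in neurons for LysB (49.9), LysD (120), LysE (33.0) and LysX (72.4). The second neuronal control library at day 11 was flagged for LysB (18.0) and LysD (15.8), and it is the one with the most genes at 0 of the 72 (3223). LysP alone was flagged in the first library of day 5 with N-terminal mHTT in glia (54.5) and the first of day 22 with full-length mHTT in glia (20.3), and LysX alone in the third glial control library at day 8 (68.0). LysS was flagged in no library.

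The change of LysS with full-length mHTT differed between drivers, by -1.69 for neurons minus glia, in a test of the difference itself (adjusted p = 0.0220). It was not called without either of 2 single libraries (adjusted p = 0.0561 and 0.0565) or within the more frequent prefix (0.266).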

How the results depend on the processing

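LysS in the glial full-length model was called over the ages under every alternative that kept it past the filter and in 18 of 18 fits without 1 library (1.87 to 2.34), except with the most frequent label prefix only and no filter (2.15, adjusted p = 0.0620), where day 22 was 2.81 (0.122). At day 22 leaving out a library gave 2.78 to 3.47 and at day 20 0.51 to 1.69. At day 18 LysS was called with a pseudocount of 0.1 (2.79), no filter (2.04), quantile normalisation (2.16), the prefix as covariate (2.27), without the farthest library, which is also the one with another member at 100 (2.04), and with all 72 libraries (2.04), and leaving out 1 library gave 1.71 to 2.69. The difference between drivers was -1.92 to -1.38 without 1 library and -1.51 within the prefix. The glial N-terminal change was 7.63 and 3.27 with pseudocounts of 0.1 and 10, and 5.61 to 5.99 without 1 library. Called members numbered 0 in the glial full-length model with a mean of at least 100 or the prefix alone, with or without the filter (1 to 2 without 1 library), 0 between drivers within the prefix (0 to 1 without 1 library), and 1 between constructs in neurons and in older neuronal controls without the farthest libraries (0 to 1 without 1 library).

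Signs turned for results never called: LysD in the neuronal full-length model (-0.24 with a pseudocount of 0.1, -1.82 within the prefix, -0.56 to 0.46 without 1 library), LysD and LysX in older glial controls (-0.0128 with quantile normalisation; -0.56 without the farthest library, -0.56 to 0.85 without 1), and with quantile normalisation LysB in older neuronal controls (-0.22) and LysS between constructs in neurons (-0.13). The cause was not tested.

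Replicate numbers do not pair the samples: 5 of 36 same-numbered pairs correlated above 0.1 (-0.546 to 0.466). With the replicate block the glial full-length change of LysS was 2.12 (adjusted p = 7.81e-04), and no call of a member changed. Summing copies by protein identity was not run. Alternatives chosen after seeing the data were the summed D-type copies (0.24 in the neuronal full-length model, no test), leaving out libraries with another member at 100, each driver's controls alone, the prefix without the filter, and the fits of the difference between drivers without 1 library, within the prefix, with no filter and in full-length libraries alone. Few reads limit every value except those of LysS with glial N-terminal mHTT and of the other members in the libraries where they were high.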

Other observations

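Fat body markers, the genes of the fly's liver-like tissue, also shifted in the glial full-length heads in which LysS rose. All 6 tested were called higher, by a median of 1.54, beside 19.3% of all genes called higher. Lsp2, a storage protein, rose by 4.04 (SE 0.26, limma adjusted p = 2.65e-09) and the yolk protein gene Yp1 by 1.801 (adjusted p = 3.85e-09). In the glial N-terminal heads 3 of 6 were called lower and none higher, Yp2 by -0.94 (limma adjusted p = 5.36e-04), although LysS was highest there. Over all genes 32.5% were called in that model. In the neuronal N-terminal heads 5 of 6 were called lower and 1 higher, and in the neuronal full-length heads 1 of 7 in each direction. Over all genes 13.6% and 18.9% were called in these models, in that order.

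Toll pathway genes divided in the glial full-length heads, with 8 of 15 called higher and 5 lower. Over all genes 44.4% were called there, 19.3% of all as higher. The highest rises were those of GNBP3, a recognition protein for fungal glucan (0.96, adjusted p = 1.93e-08), the protease psh (0.64) and the protease modSP (0.59). In the glial N-terminal heads 4 were called higher, spz, the Toll ligand, the most (0.59, adjusted p = 2.36e-07), and 1 lower (Myd88, -0.37), a share near the 32.5% called over all genes. Leaving out 1 library put the number called higher at 2 to 4.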
